A study of Mus musculus with 2 samples.

Results

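The chromatin around 9 genes of mitochondrial antioxidant defence, Nnt, Txnrd2, Txn2, Prdx3, Gpx1, Gpx4, Glrx2, Sod2 and Cat, was examined by DNase-seq in mouse adrenal gland, out of 21828 protein-coding genes of the GENCODE vM21 annotation (mm10). The genes were chosen by name for what their products do. Earlier results of these data were known when they were chosen. In DNase-seq, nuclei are treated with DNase I, and the positions of its cuts mark chromatin that is open. The tissue came from male adult B6CASTF1/J mice aged 18 to 20 months, an F1 hybrid strain, and both libraries form 1 group, labelled biological replicates 1 and 2. The labels give separate tissue samples but a single donor entry, so it is not known whether the libraries came from different animals, and the spread between them may be technical. With 1 group there was no condition to test, and no p-value is given.

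Steroid synthesis in adrenal mitochondria passes electrons to cytochrome P450 enzymes, and electrons that leak from this chain and from respiration form superoxide. Superoxide dismutase turns superoxide into hydrogen peroxide, which peroxiredoxins, glutathione peroxidases and catalase remove. The thioredoxin and glutathione cycles that reload these peroxidases draw on NADPH, and in humans loss of NNT or TXNRD2 causes familial glucocorticoid deficiency. Gpx1 and Gpx4 products also work outside mitochondria, and catalase is chiefly a peroxisomal enzyme.

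All 9 genes had a peak within 1 kb of a start of a protein-coding transcript in both libraries, which is called an open promoter here. The same held for 9 of 9 in the authors' shorter peak list. Over all protein-coding genes the share was 64.8% in the longer list, used throughout, and 60.1% in the shorter one. The authors' peak height, a signal normalised for read depth, then ranked the promoters. Sod2 and Gpx4 stood above the 90th percentile of open genes, and Txnrd2 and Nnt had the lowest means of the 9. The mean of both libraries for the tallest promoter peak had a median of 3.87 over the 9 genes and 3.90 over 14139 open genes, whose 10th and 90th percentiles were 0.855 and 7.60. Of the 9 genes, 4 were above the median of open genes. Height in whole tissue does not tell a site open in few cells from one that is less open in many, and it is no measure of RNA.

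**Figure D1:**
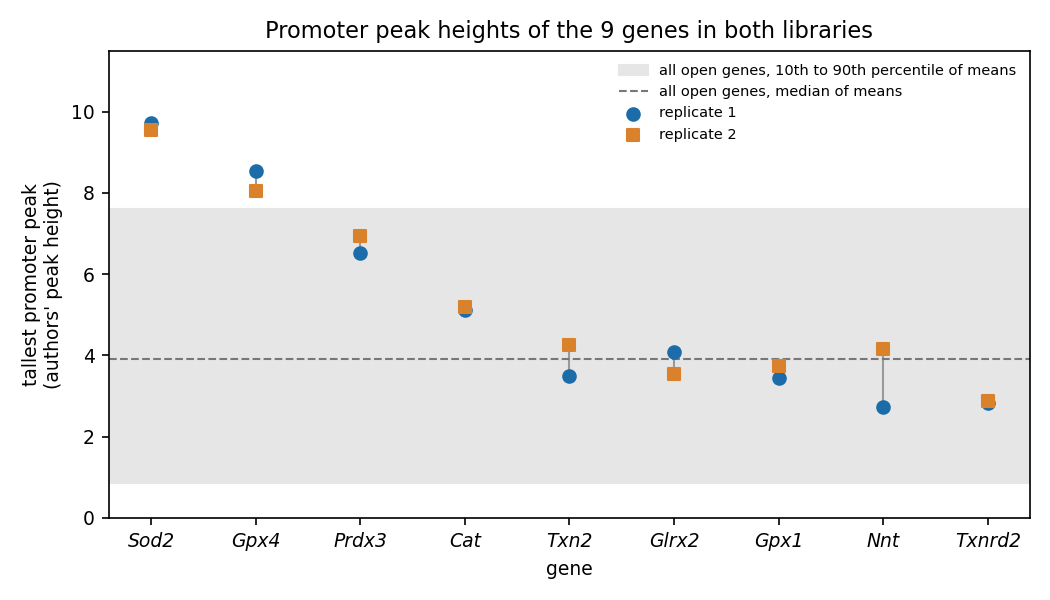
Height of the tallest promoter peak of each gene (y axis, the authors' peak height) in replicate 1 (circles) and replicate 2 (squares), joined by a line; the band runs from the 10th to the 90th percentile and the dashed line is the median of the means of 14139 open genes. Sod2 and Gpx4 lie above the band in both libraries, and Nnt has the widest gap between libraries.

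The heights of the longer lists were multiples of a smallest step, which was 0.00531 for replicate 1 and 0.0075 for replicate 2, and the lists held 98630 and 118249 peaks in replicates 1 and 2. Merging overlapping peaks gave 143793 regions, of which 65778 had a peak in both. Of 8 marker genes of adrenal cortex cells 6 had an open promoter and of 6 of chromaffin cells of the medulla 3 did, against 64.8% of all genes, so these counts do not set the tissue apart. The cortex markers had means of 6.16 for Scarb1, 4.85 for Fdx1, 2.62 for Cyp11a1, 1.98 for Nr5a1, 1.97 for Star and 1.37 for Cyp11b1, and Hsd3b1 and Mc2r had no promoter peak in either library. The chromaffin markers Chgb and Chga had 3.74 and 1.79, and Slc18a1 had 10.9 in a region that is also near a start of Atp6v1b2. Th and Pnmt had no peak, and Dbh had one in replicate 1 alone.

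The promoter sequences of the 5 genes whose upstream stretch held no annotated exon show what lay under these peaks. They are 100 bases up to the annotated start, from the GRCm38 reference (mm10), written 5′ to 3′ in the direction of the gene. Capitals mark GGGCGG, the core of SP and KLF factor sites, or its reverse complement, where it lay under a footprint (a short stretch protected from cutting inside open chromatin) in both libraries.
Sod2 at chr17:13007717-13007816, plus strand: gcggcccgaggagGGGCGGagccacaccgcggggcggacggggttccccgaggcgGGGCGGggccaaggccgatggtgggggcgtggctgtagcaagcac
Gpx4 at chr10:80053388-80053487, plus strand: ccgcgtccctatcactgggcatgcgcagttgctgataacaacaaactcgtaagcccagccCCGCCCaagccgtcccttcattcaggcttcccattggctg
Prdx3 at chr19:60874557-60874656, minus strand: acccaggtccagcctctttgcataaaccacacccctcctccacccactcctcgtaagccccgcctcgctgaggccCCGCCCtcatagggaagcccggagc
Cat at chr2:103485161-103485260, minus strand: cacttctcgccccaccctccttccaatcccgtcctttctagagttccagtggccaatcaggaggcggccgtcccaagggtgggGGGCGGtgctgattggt
Txn2 at chr15:77929007-77929106, minus strand: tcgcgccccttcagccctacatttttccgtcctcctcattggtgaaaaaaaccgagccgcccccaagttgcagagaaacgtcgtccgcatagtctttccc
GGGCGG was searched on both strands in 300 bp windows centred on the tallest promoter regions. It stood in 9 of 9 windows of these genes and in 71.4% of 14074 windows of open genes. It lay under a footprint of both libraries in 6 of the 9, which were Nnt, Txn2, Prdx3, Gpx4, Sod2 and Cat, against 41.9% of all windows. Footprints were not required to lie inside a called peak. The footprinted Txn2 match, at -174 bp from the nearest start (minus is upstream), lay beyond the printed bases. It was outside the promoter peak of replicate 1 and inside that of replicate 2. The match within the printed Txn2 stretch was covered by a footprint in neither library. The windows of the 9 genes were 60.0% to 74.3% G and C, and the median of all windows was 65.3%.

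Nnt encodes nicotinamide nucleotide transhydrogenase, the inner-membrane enzyme that uses the proton gradient to make NADPH. The gene lies on the minus strand at chr13:119335448-119408997, and its longest coding transcript in the annotation has 17 exons and 2505 coding bases. The C57BL/6J strain, whose genome mm10 is, lacks a run of internal Nnt exons, so reads of the other parental allele from that segment have no place in this reference. The tallest promoter peak had a height of 2.73 in replicate 1 and 4.16 in replicate 2, that is 515 and 554 steps. Replicate 2 was 1.52 times the height of replicate 1, the widest gap among the 9 genes. The mean of 3.44 ± 1.00 (SD, n = 2) placed Nnt at rank 7917 of 14139.

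The peak of replicate 1 was 440 bp wide and covered the annotated start. That of replicate 2 was 220 bp wide and began 164 bp upstream of it. The start that RefSeq gives, 260 bp upstream of the nearest GENCODE start, lay inside the peak of both libraries. A footprint of both libraries covered a GGGCGG match at this RefSeq start, shown in capitals with 10 reference bases to each side.
Nnt start at chr13:119409246-119409271, minus strand: aagagcaaggGGGCGGggctgcgggc
Inside the gene, 4 regions in introns were open in both libraries. The tallest of these, 30356 bp into the gene, reached 3.25 in replicate 1 and 3.62 in replicate 2, a mean of 3.43 ± 0.258 (SD, n = 2), which is 0.996 times the mean of the promoter. It ranked 2998 of 43069 regions that were open in both libraries and more than 1 kb from any coding start, called distal here. A second intron region, 45386 bp into the gene, had heights of 0.988 and 1.81 in replicates 1 and 2.

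The thioredoxin genes form a chain in which thioredoxin reductase 2 (Txnrd2, a selenoprotein) passes electrons from NADPH to thioredoxin 2 (Txn2), and thioredoxin 2 reloads peroxiredoxin 3 (Prdx3), the main peroxidase of the matrix. Their promoters were of unequal height, with Prdx3 the tallest. Txnrd2, on the plus strand at chr16:18426384-18479073, had a promoter height of 2.82 in replicate 1 and 2.87 in replicate 2. The mean of 2.84 ± 0.0284 (SD, n = 2) gave rank 8997 of 14139, the lowest of the 9 genes. Txnrd2 has 8 coding starts, and the 3 farther into the gene had no peak within 1 kb in either library.

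Txn2, on the minus strand at chr15:77915047-77929006, had a promoter height of 3.49 in replicate 1 and 4.26 in replicate 2, with a mean of 3.87 ± 0.546 (SD, n = 2) and rank 7121. Its peak was 100 bp wide in replicate 1 and 420 bp wide in replicate 2. A match to CCGGAAG, the core of ETS factor sites, lay under a footprint of both libraries at -104 bp from the nearest start (minus is upstream). This match lay outside the promoter peak of replicate 1 and inside that of replicate 2.
Txn2 ETS match at chr15:77929097-77929123, plus strand: aggggcgcgaCCGGAAGgaatgggatc
CCGGAAG stood in the promoter windows of 2 of the 9 genes (Txnrd2 and Txn2) and in 18.0% of all windows. It was under a footprint of both libraries in Txn2 alone of the 9, and in 6.39% of all windows.

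Prdx3, on the minus strand at chr19:60864051-60874556, has a single coding start, and its promoter peak centred at -4 bp from it in replicate 1 and at -24 bp in replicate 2. The heights were 6.53 in replicate 1 and 6.95 in replicate 2, a mean of 6.74 ± 0.297 (SD, n = 2) with rank 2294. Lower peaks stood downstream of the start: at 876 bp, replicate 1 had a height of 1.38 and replicate 2 one of 1.67. The 3 promoters kept the order Prdx3, Txn2, Txnrd2 in both libraries, and the gap between Prdx3 and Txn2 was wider than the gap between libraries of either.

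The glutathione genes included the promoter with the second highest mean. Gpx4, which reduces lipid hydroperoxides in membranes and guards against ferroptosis, lies on the plus strand at chr10:80047166-80056439. Its tallest promoter peak had a height of 8.53 in replicate 1 and 8.06 in replicate 2, a mean of 8.29 ± 0.338 (SD, n = 2) with rank 889. A lower peak just downstream of the next coding start reached 2.19 and 1.93 in replicates 1 and 2. Gpx4 had 7 promoter footprints that overlapped between libraries, the most of the 9 genes, whose counts ran from 3 to 7 with a median of 4, which was also the median of open genes.

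Gpx1, the most widespread glutathione peroxidase, lies on the plus strand at chr9:108338903-108340343. The heights were 3.44 in replicate 1 and 3.74 in replicate 2, and the mean of 3.59 ± 0.217 (SD, n = 2) gave rank 7640. A CACGTG match, the E-box of basic helix-loop-helix factors, lay under a footprint of both libraries at -18 bp from the nearest coding start, chr9:108339243. The match is downstream of the RefSeq start at chr9:108339080 and of another coding start at chr9:108339054. Its printed stretch overlaps an annotated exon.
Gpx1 E-box at chr9:108339212-108339237, plus strand: aaagcgatgcCACGTGatctcagcac
Gpx1 was the single gene of the 9 with CACGTG in its window, against 10.0% of all windows, and 3.25% of all windows had it under a footprint of both libraries. Glrx2 encodes glutaredoxin 2, which removes glutathione from proteins, and lies on the plus strand at chr1:143716338-143749676. Its promoter reached 4.08 in replicate 1 and 3.54 in replicate 2, a mean of 3.81 ± 0.384 (SD, n = 2) with rank 7242. Gpx1, Glrx2, Txn2 and Nnt had means between 3.44 and 3.87 with ranges that overlapped between libraries, so their order was not resolved, and both Txnrd2 values lay within the Nnt range.

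Sod2, the manganese superoxide dismutase of the matrix, had the tallest promoter of the 9. The gene lies on the plus strand at chr17:13006846-13040063. The heights were 9.72 in replicate 1 and 9.56 in replicate 2, that is 1830 and 1274 steps. The mean of 9.64 ± 0.114 (SD, n = 2) gave rank 317 of 14139. Both of its footprinted GGGCGG matches are in capitals in the sequence printed earlier. Cat, on the minus strand at chr2:103453849-103485160, reached 5.13 in replicate 1 and 5.18 in replicate 2, a mean of 5.16 ± 0.0377 (SD, n = 2) with rank 4699. The order Sod2, Gpx4, Prdx3, Cat was the same in both libraries, and in neither library did any of the other 5 promoters reach the height of Cat.

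Between libraries, 3 of the 9 promoters were taller in replicate 1 and 6 in replicate 2. None was more than 1.5 times taller in replicate 1, against 3.96% of open genes, and Nnt was more than 1.5 times taller in replicate 2, against 3.76% of open genes. The median log2 ratio of replicate 1 over replicate 2 was -0.02 over the 9 genes and 0.05 over open genes.

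Every other consensus searched stood in fewer of these promoters than GGGCGG. The antioxidant response element of NRF2, searched as TGACNNNGC on both strands, had 1 match, in the Sod2 window, and no footprint covered it in both libraries. It stood in 15.6% of all windows. CCAAT, the NFY box, stood in 4 of the 9 windows (Txn2, Gpx4, Sod2 and Cat) and in 35.9% of all windows, and in 0 of the 9 and 10.4% of all windows it was under a footprint of both libraries. No window of the 9 genes held TGANTCA (AP-1), TGACGTCA (CRE), TGTTTAC (FOXO) or GGGANTTCC (NF-kB), which stood in 3.94%, 3.73%, 1.85% and 2.15% of all windows. CAAGGNCA, the site of the steroidogenic factor NR5A1, had 1 match, in Txn2, with no footprint, and stood in 4.71% of all windows. The sites of NRF1, nuclear respiratory factor, and of YY1 had 1 match each, in Gpx4 and in Prdx3, with no footprint of both libraries over them, and stood in 11.2% and 1.73% of all windows. The NFI site had no match and stood in 0.0284% of all windows. A match describes the letters of the reference and not a bound factor.

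The gene bodies with 50 kb to each side held 92 regions open in both libraries. Of these, 17 were at the genes' own promoters, 9 in their introns, 34 at promoters of other genes, 17 inside other genes and 15 between genes, and none had its centre in an exon of the 9 genes outside the promoters. The median window held 11 such regions for the 9 genes and 7 for all genes. For 4 of the 9 genes the tallest shared region of the window, by the mean of both libraries, was not the gene's own promoter, against 59.0% of open genes. For Gpx1 it was the promoter region of Rhoa and Tcta at 5.37, and for Glrx2 that of Trove2 and Uchl5 at 7.79. For Txn2 and Txnrd2 it was a distal region. For Nnt the promoter was tallest by a narrow margin, with a mean of 3.445 against 3.432 for an intron region. In replicate 1 the Nnt promoter, at 2.734, was lower than that intron region at 3.249 and a Paip1 promoter region at 4.025.

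**Figure D2:**
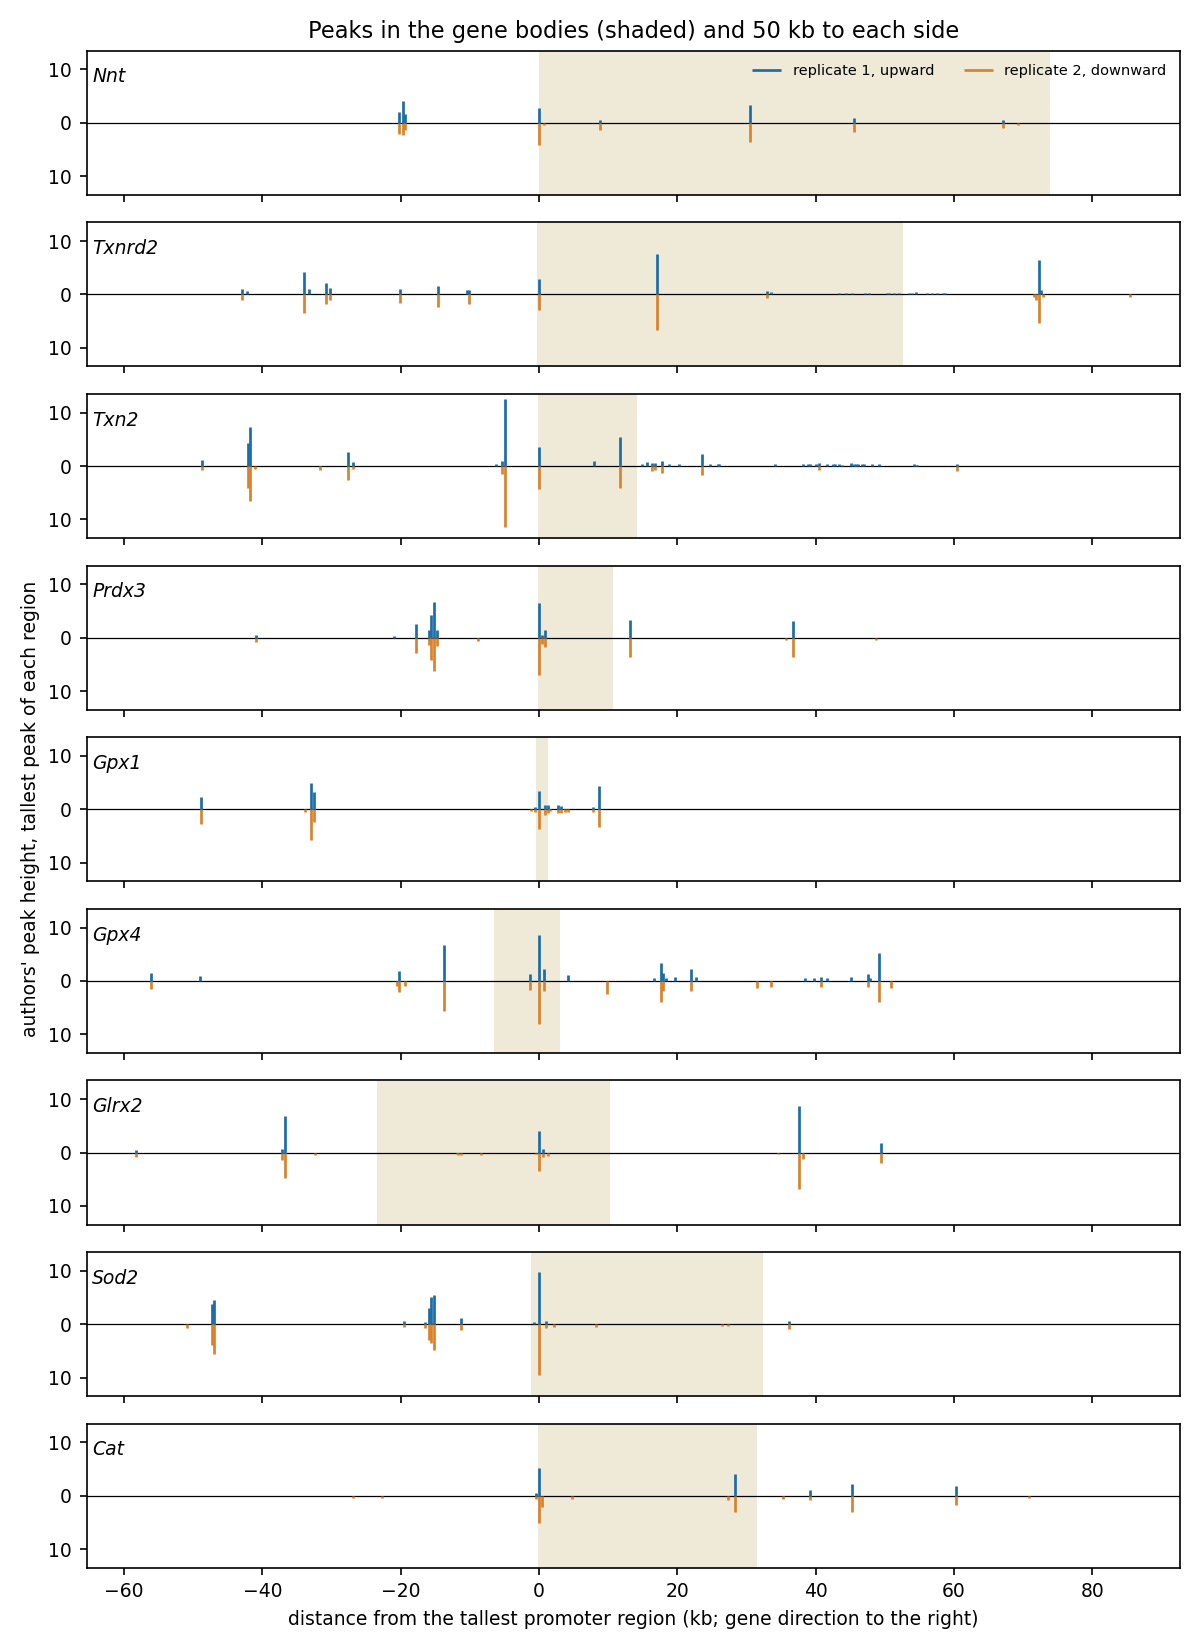
Heights of all peaks in each gene body (shaded) and 50 kb to each side, by distance in kb from the middle of the tallest promoter region, with the gene read to the right; lines point upward for replicate 1 and downward for replicate 2. The tallest line belongs to the region upstream of Txn2, at 12.5 in replicate 1 and 11.4 in replicate 2, and Txnrd2 has its tallest line inside the gene.

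The tallest region of all 9 windows lay upstream of Txn2, at -4955 bp from its nearest start, between genes at chr15:77933861-77934060. It reached 12.5 in replicate 1 and 11.4 in replicate 2. The mean of 12.0 ± 0.753 (SD, n = 2) was 3.09 times that of the Txn2 promoter and ranked 21 of 43069 shared distal regions. A second region, in an intron of Txn2 at chr15:77917281-77917460, had 5.52 in replicate 1 and 4.21 in replicate 2, with a mean of 4.86 ± 0.926 (SD, n = 2) and rank 1041. Txn2 thus had a distal region taller than its promoter upstream in both libraries, and the intron region exceeded the promoter in replicate 1 but not in replicate 2.

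In Txnrd2 the tallest region was in an intron, 2870 bp downstream of the nearest coding start, at chr16:18443581-18443760. It reached 7.62 in replicate 1 and 6.69 in replicate 2. The mean of 7.15 ± 0.657 (SD, n = 2) was 2.52 times that of the promoter and ranked 195. The Cat gene had an intron region at chr2:103456721-103456920 with 4.04 in replicate 1 and 3.06 in replicate 2, a mean of 3.55 ± 0.693 (SD, n = 2) with rank 2759. In the other windows the tallest distal regions had means of 3.68 in Sbno2 near Gpx4, 3.36 in Sfxn4 near Prdx3, 1.82 in Uchl5 near Glrx2, 1.16 between genes near Sod2 and 0.787 between genes near Gpx1. By the means, no distal region was as tall as the promoter in 7 of the 9 windows, all but those of Txn2 and Txnrd2. In the Nnt window this was a near tie, and the intron region exceeded the promoter in replicate 1, at 3.249 against 2.734. The 41 shared distal regions of the 9 windows had a median height of 1.17, and the 43069 of the genome one of 0.976.

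Several of these distal regions carried letters like the site of CTCF, a zinc-finger protein that binds at loop anchors and insulators. The sequences are 60 reference bases centred on the footprint, with the 12 bases that best fit a loose CTCF consensus in capitals, on the strand that holds them. Shown are, of the 2 tallest distal regions of each window, those with a full match under a footprint of both libraries, and the region upstream of Txn2 because it was the tallest.
Txn2 upstream at chr15:77933923-77933982, plus strand: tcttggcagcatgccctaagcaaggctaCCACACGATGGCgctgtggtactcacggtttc
Txn2 intron at chr15:77917355-77917414, minus strand: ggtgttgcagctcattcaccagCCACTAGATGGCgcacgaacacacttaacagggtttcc
Txnrd2 intron at chr16:18443642-18443701, plus strand: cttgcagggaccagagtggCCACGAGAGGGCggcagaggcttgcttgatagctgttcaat
Nnt intron at chr13:119378547-119378606, minus strand: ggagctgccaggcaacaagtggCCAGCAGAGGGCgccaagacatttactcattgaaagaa
Nnt second intron region at chr13:119363550-119363609, minus strand: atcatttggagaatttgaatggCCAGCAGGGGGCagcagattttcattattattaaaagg
Glrx2 window, in Uchl5 at chr1:143788997-143789056, plus strand: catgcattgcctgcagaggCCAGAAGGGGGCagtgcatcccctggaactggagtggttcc
Prdx3 window, in Grk5 at chr19:60892337-60892396, minus strand: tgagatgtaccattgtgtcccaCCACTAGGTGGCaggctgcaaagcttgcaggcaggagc
Cat window, in Elf5 at chr2:103439844-103439903, plus strand: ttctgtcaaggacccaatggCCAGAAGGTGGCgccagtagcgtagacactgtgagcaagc
The Txn2 upstream region departs from this consensus at 1 base. So do the tallest distal regions of the Prdx3 and Cat windows and both of those considered near Sod2, which are not shown. How often distal regions of the genome come as near to it was not computed. Of the 18 regions considered, 7 matched in full under a footprint of both libraries, and 10 others are not shown. The loose consensus was chosen after these sequences were seen, since a stricter one matched 2 of the 41 regions (4.88%) against 6.48% of shared distal regions. The loose form, searched on both strands like the strict one, matched 11 of the 41 (26.8%) against 20.6%, and 8 (19.5%) had the match under a footprint of both libraries, against 16.0%. Among distal regions from the 90th percentile of height up, the shares under a footprint were 3 of 7 (42.9%) and 38.1%. These shares near the 9 genes were close to those of the genome.

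**Figure D3:**
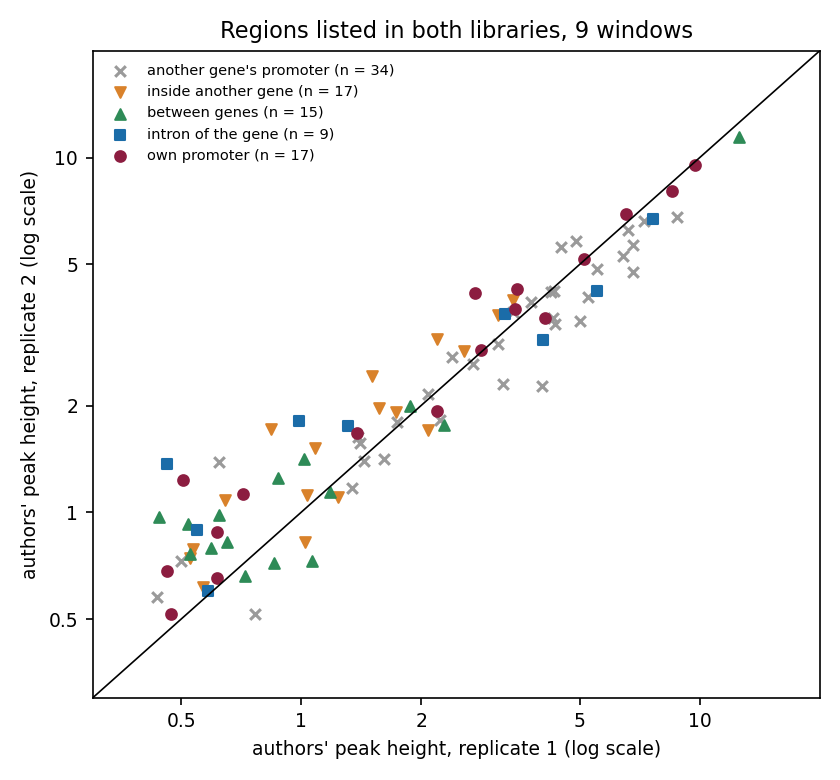
Heights of the 92 shared regions in replicate 1 (x axis) and replicate 2 (y axis), both on log scales, with the line of equal height and a symbol for each kind of place. The 17 own-promoter regions run from low flanking peaks up to Sod2, and points below a height of 1 scatter most widely.

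Beside the shared regions, the windows held 83 regions with a peak in replicate 1 alone and 43 in replicate 2 alone. Txnrd2 had 39 and Txn2 had 31 of those in replicate 1 alone, against a median of 1 and a maximum of 142 over all genes. As many or more were found at 145 genes for the Txnrd2 count and at 266 for the Txn2 count. Most of the Txnrd2 regions formed 1 stretch of 16.0 kb over the 3′ end of the gene, at chr16:18469661-18485671, with 34 low peaks of height 0.0796 to 0.531. The deposited false discovery rate was under 0.05 over 10797 bp of this stretch in replicate 1 and over 0 bp in replicate 2. The Txn2 stretch lay downstream of the gene at chr15:77879821-77895010, with 19 peaks of height 0.281 to 0.515, and 3940 bp were listed in replicate 1 against 171 bp in replicate 2. Runs of at least 34 such regions no more than 5 kb apart numbered 55 in the genome for replicate 1 and 0 for replicate 2, whose longest run held 33. Runs of at least 19, as near Txn2, numbered 201 for replicate 1 and 3 for replicate 2. Their cause was not tested.

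**Figure D4:**
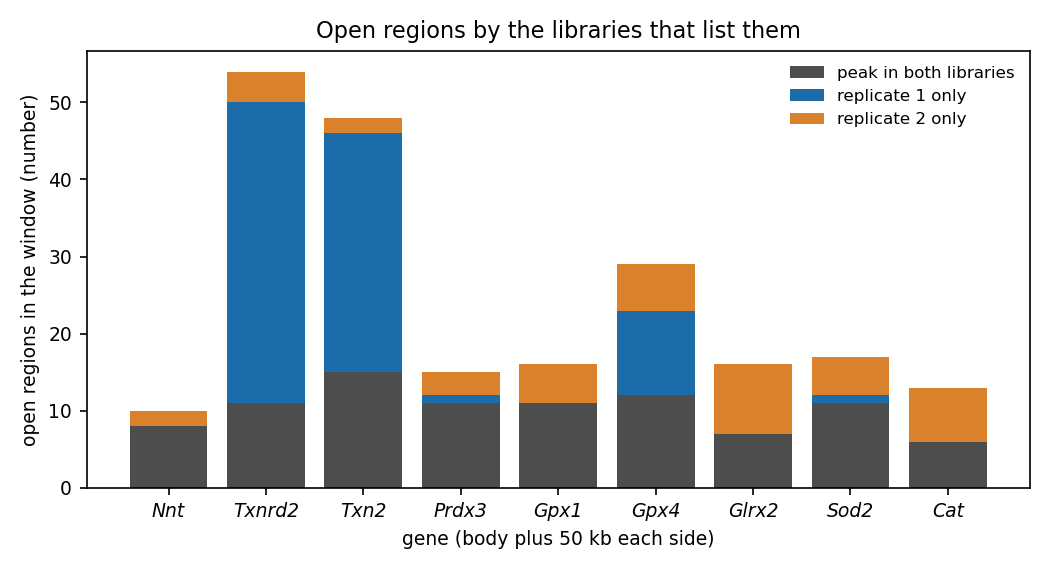
Number of open regions in each gene body plus 50 kb to each side, stacked by whether both libraries, replicate 1 alone or replicate 2 alone had a peak. Txnrd2 and Txn2 stand out by their 39 and 31 regions of replicate 1 alone, and the shared counts run from 6 at Cat to 15 at Txn2.

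The genes that feed, extend or control this system were open throughout. Of 69 related redox genes in 6 lists, 69 had an open promoter in both libraries and 68 in the shorter list, with a median height of 4.59. Their share stands beside 64.8% of all protein-coding genes and 9 of 9 of the mitochondrial set, and the lists were chosen with results of these data known, so this is a description. Among 18 genes listed as cytosolic, secreted and reticulum counterparts the tallest promoters were Txnip, an inhibitor of thioredoxin, at 11.2, Sod1 at 9.01 and Txn1, the cytosolic thioredoxin, at 7.84. Where their products act was not measured, and the heading does not mean that each is absent from mitochondria. Between compartments, the mitochondrial Sod2 had 9.64 against 9.01 for Sod1, while the mitochondrial Txn2 had 3.87 against 7.84 for Txn1, and Txnrd2 had 2.84 against 4.46 for its cytosolic counterpart Txnrd1. Sod1 had 10.0 in replicate 1 and 7.995 in replicate 2, which straddle the Sod2 heights, so the order of these 2 was not resolved, while Txn1 and Txnrd1 were taller than their mitochondrial counterparts in both libraries. Glrx2 had 3.81 against 2.52 for the cytosolic glutaredoxin Glrx, and was taller in both libraries. It was lower in both than Glrx3 at 7.58 and Glrx5 at 5.72, glutaredoxin genes of the same list that are not assigned to a compartment here. Prdx3, at 6.74, was lower than the cytosolic Prdx1 at 7.52 in both libraries, and higher in both than Prdx6 at 2.71, Prdx4 at 2.26 and Prdx2 at 2.39, whose region is shared with Rnaseh2a. It was also higher in both than Prdx5 at 3.32, whose region is shared with Trmt112. Against the gene named as cytosolic, Txn2 and Txnrd2 were lower and Glrx2 was higher. No one direction thus held for the compartments.

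Among 10 genes of glutathione synthesis, reduction and transport, Gss, glutathione synthetase, led at 10.9, ahead of Slc25a39, the carrier that brings glutathione into mitochondria, at 6.88 and its relative Slc25a40 at 6.55, in a region shared with Dbf4. Among 11 genes listed under NADPH supply, the malic enzyme gene Me2 led at 11.1, with Idh1 at 8.41 and the mitochondrial NAD kinase Nadk2 at 6.30. The order is that of promoter heights alone, and how much NADPH each product makes was not measured. The list held means on both sides of that of Nnt, with G6pdx at 3.20, Me1 at 2.02, Aldh1l2 at 1.97 and Me3 at 1.40 below it. Among 7 genes of selenoprotein synthesis, on which Txnrd2, Gpx1 and Gpx4 depend, Sepsecs had 6.82, Secisbp2 6.45 and Sephs2 6.26. Among 13 regulators, Esrra, a nuclear receptor of mitochondrial genes, had 10.1, Nfe2l2, which encodes NRF2, had 9.38, and Tfam, which packages mitochondrial DNA, had 7.51. Among 10 quinone, haem and repair enzymes, the haem oxygenases Hmox2 and Hmox1 had 7.14 and 6.23 and Dhodh had 5.66. No gene of the 6 lists lacked a promoter peak.

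**Figure D5:**
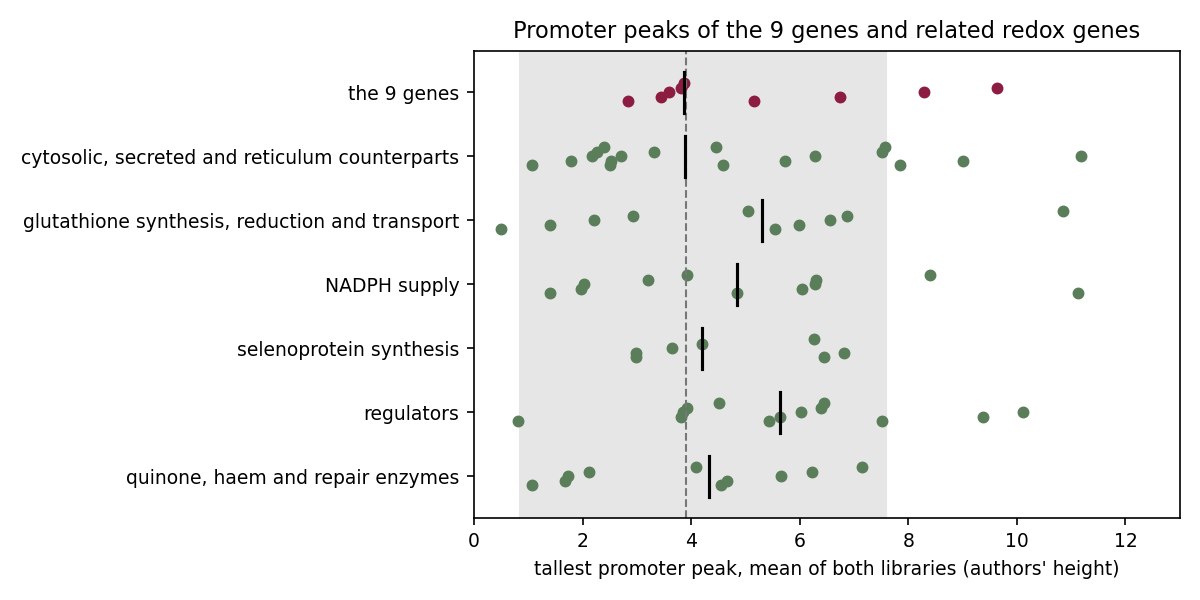
Mean of both libraries for the tallest promoter peak (x axis, the authors' peak height) of the 9 genes (top) and of 69 related genes by list; each point is a gene, the short line is the median of its list, and the band and dashed line are as in the plot of promoter heights by library. The 9 genes spread from 2.84 to 9.64, within the span of the related lists.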

How the data were processed

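DNase-seq peaks, footprints and false discovery rates were called by the authors for each library from filtered mm10 alignments, per the index text deposited with them. Not given in the sources used here were the aligner, the callers and their versions. The deposited peak height is a signal normalised for read depth, and its values were within 0.05 of whole multiples of 1 step per library. The number of reads is unknown, so no counting interval is given. The deposited footprint score was 0.01 in every entry and was used for nothing. The deposited q-value (false discovery rate) is listed per stretch of positions under 0.05.

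The longer of 2 deposited peak lists per library was the main one. A gene was open where both libraries had a peak within 1 kb of a start of a protein-coding transcript, and its height was that of the tallest such peak in each library. Peaks that overlapped by 1 bp or more between libraries were merged into shared regions. Motifs were 15 consensus sequences, of which 1 was added after the sequences were seen, searched in 300 bp windows of the reference, with footprints extended by 3 bp. Overlapping gene records of a symbol were joined, as for Nnt. Where neighbouring genes share a promoter region, its peak was given to all of them. Results on 1 gene near a member are left out here. Sequences and annotation are GRCm38 with GENCODE vM21, and alleles of the mice were not examined.

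All 9 genes are named. Of each related list the 3 tallest promoters and any gene without a promoter peak are named. Others named in the related lists and windows were picked after their values were seen. The members and lists were chosen with earlier results of these data known. Python 3.11.15, pandas 2.3.3, numpy 2.4.6, pysam 0.24.0 and matplotlib 3.10.9 were used, and the steps were tested on simulated peaks and planted motifs. Alternatives were other promoter widths, gene 5′ ends, windows, overlaps and the shorter list, and each library left out.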

Additional observations from a re-analysis of the deposited data

How the results depend on the processing

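No paired analysis was possible because both libraries belong to 1 group. Of 45 alternative values that kept both libraries, 43 stayed within the spread between libraries or within 1.5 times the count. Most of the 45 were heights of single genes that equalled the main value exactly, so this count says little about stability. Gpx4 and Glrx2, which gave no value at gene 5′ ends, are not counted there. With 2 libraries, leaving out 1 must move a single gene's mean by less than 1 SD, so those values show nothing about stability. The median promoter height of the 9 genes, 3.87, was 4.08 to 4.26 when 1 library was left out. The 92 shared regions became 161 with 100 kb to each side, and 135 to 175 with a single library, where sharing is no longer asked. The 192 shared footprints became 356 with 100 kb to each side and 368 to 428 with a single library. Taking only the 5′ end of each gene record, 7 of the 9 genes and 63 of the 69 related genes were open, and Gpx4 and Glrx2 gave no value, since their records begin with transcripts that start farther upstream. The share of all protein-coding genes open by that rule is not given here, so these counts have no background beside them. Low peaks are the least certain, since the lowest in the Txnrd2 stretch was 15 steps high.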

Other observations

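Neighbouring genes took many of the regions in these windows. Of the 34 shared regions at promoters of other genes, those with the highest means after the Trove2 and Uchl5 region were at Eif3d, a translation initiation factor near Txn2, at 6.92, Grk5, a receptor kinase near Prdx3, at 6.42, and Polr2e, an RNA polymerase II subunit near Gpx4, at 6.23. Near Sod2, Wtap, a subunit of the RNA methyltransferase complex, had 5.19 and Acat2, a thiolase, had 5.04. These genes were chosen after their values were seen, and no link between their promoters and the 9 genes was measured.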
